A study of Mus musculus with 6 samples.

Results

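The complement genes C3, C1rl and Cfd (adipsin) were followed across the 6 cochlear libraries of the study. These 3 genes were chosen by their symbols in the authors' deposited lists (Cfd in the one for down-regulated, C3 and C1rl in the one for up-regulated genes) and joined by identifier to the deposited table, so they are 3 of the 41096 genes in it. Both lists rest on the same comparison of the same animals, so the differences between the groups are given below as descriptions and without tests. All 3 genes passed the filter on low counts, as did 15970 genes in all.

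Total RNA came from the left cochlea of C57BL/6 mice, which the sample labels spell C56Bl/6, and which the study's methods describe as young females. All animals were exposed to a 16 kHz sound. The sound trauma group (specimens 6, 8 and 10, n = 3) had sound only according to the labels, and artificial perilymph injected into the posterior semicircular canal according to the methods. The MSC treated group (specimens 13, 18 and 20, n = 3) received human mesenchymal stromal cells (MSCs) of Wharton's jelly, the connective tissue of the umbilical cord, injected by the same route. Sets of 3 values follow this order of specimens throughout. The methods name more animals per condition than the 6 libraries analysed here, and call the sound a tone where the labels call it narrow band noise. The labels place RNA extraction 2 days after treatment, and the methods give a longer interval. Reads were aligned to a mouse genome alone, so RNA of the injected human cells was not measured as such.

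Complement is a cascade of plasma and tissue proteins that marks surfaces for uptake by phagocytes and calls in leukocytes. The classical, lectin and alternative pathways meet at C3, whose cleavage releases the small fragment C3a and leaves C3b on the target. Cfd, or complement factor D, is the serine protease that cuts factor B once it is bound to C3b, which makes the convertase of the alternative pathway, and its older name adipsin comes from its abundance in fat cells. C1rl is a serine protease related to C1r, the protease of the first component of the classical pathway. Complement has been linked with the response of the cochlea to noise.

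The sequence before each gene's start is shown as background, and its bearing on the profiles over the libraries was not tested. The sequences are from RefSeq on GRCm38.p6, which is not the C57BL/6NJ build used for alignment, and hold the 250 bases before the annotated start on the gene's strand. All 3 genes matched by symbol. C3 lies on the minus strand at chr17:57228137-57228386, C1rl on the plus strand at chr6:124492863-124493112 and Cfd on the plus strand at chr10:79890603-79890852. Capitals mark letters that match the C/EBP-type motif TTGCNNAA or the NF-kB-type motif (GGG and CC with 5 unspecified bases between), searched on both strands.
C3: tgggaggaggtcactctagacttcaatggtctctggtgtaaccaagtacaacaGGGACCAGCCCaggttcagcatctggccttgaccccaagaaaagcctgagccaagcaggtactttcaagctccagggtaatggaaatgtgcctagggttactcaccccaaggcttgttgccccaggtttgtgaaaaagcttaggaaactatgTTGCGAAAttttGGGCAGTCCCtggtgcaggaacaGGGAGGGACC
C1rl: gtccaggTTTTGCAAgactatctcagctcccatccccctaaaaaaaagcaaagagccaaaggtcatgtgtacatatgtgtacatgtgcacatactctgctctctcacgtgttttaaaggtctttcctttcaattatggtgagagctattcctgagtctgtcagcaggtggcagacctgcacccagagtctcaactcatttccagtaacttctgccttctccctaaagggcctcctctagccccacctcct
Cfd: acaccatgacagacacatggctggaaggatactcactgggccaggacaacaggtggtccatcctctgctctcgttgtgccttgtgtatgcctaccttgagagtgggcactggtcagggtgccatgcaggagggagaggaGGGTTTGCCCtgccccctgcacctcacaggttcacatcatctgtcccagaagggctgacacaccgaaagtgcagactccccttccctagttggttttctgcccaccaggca
The C/EBP-type letters occurred once before C3, 45 bases ahead of its start, and once before C1rl, 243 bases ahead. They were absent from this window of Cfd and present in 9.56% of all 32851 promoter windows of the same length. The NF-kB-type letters occurred 4 times before C3, where the leading pair of matches overlap, and once before Cfd, 111 bases ahead of its start. That motif is loose, with 45.8% of all windows holding it.

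Reads on genes were between 9170390 and 11030863 per library. No gene of the 15970 tested (0, or 0.0%) had an adjusted p under 0.05 in limma, edgeR, DESeq2 or limma-voom. Unadjusted p-values under 0.05 were given by limma to 107 genes lower with MSCs (0.67%) and 269 higher (1.68%), 2.35% together. With 1 library left out these counts moved to 1147 lower and 1397 higher without specimen 10, 165 and 137 without specimen 6, 72 and 171 without specimen 8, 110 and 178 without specimen 13, 83 and 108 without specimen 18, and 55 and 120 without specimen 20. With all 6 libraries the counts were 266 and 259 by edgeR, 550 and 249 by DESeq2 and 98 and 252 by limma-voom. Of the tested genes 49.8% had a negative log2 fold change, and 38.1% did when libraries were scaled by their total counts. Libraries of both groups differed widely in marker genes of other tissues. The summed scaled count of 13 skeletal muscle genes was highest in sound trauma specimen 6 (998104) and MSC treated specimen 13 (566994) and lowest in sound trauma specimen 8 (40916), while that of 12 brain neuron and glia genes was highest in specimen 8 (41166). Of 18 inner ear markers, 7 had a symbol and passed the filter, among them the tectorial membrane gene Otog, the hair cell genes Otof and Pou4f3 and the stria potassium channel genes Kcnq1 and Kcne1. All 7 were read in every library, with sums of 1967, 2080.4 and 4875 after sound trauma against 3393, 4236 and 3558 with MSCs. In whole-tissue RNA, fewer cells of a type and less RNA per cell cannot be told apart.

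Of the 3 complement genes, C3 was abundant and even, C1rl was scarce, and Cfd varied most from animal to animal. Values below are scaled counts, the authors' read counts multiplied by 1 factor per library, and each difference is a log2 fold change of MSC treated over sound trauma animals from limma on log2(scaled count + 1), with its standard error (SE). Levels of C3, C1rl and Cfd are compared with each other only as FPKM (fragments per kilobase of transcript, scaled to library size), which correct for transcript length. FPKM per library was obtained from the recovered reads and the length that the authors' group means of FPKM imply. That length came out as 5.143 kb for C3, 3.0 kb for C1rl and 0.923 kb for Cfd, the same in both groups.

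C3 (MGP_C57BL6NJ_G0024364) had scaled counts of 3251, 2933 and 3848 after sound trauma against 3924, 3377 and 3829 with MSCs. Its lowest value was in specimen 8 and its highest in specimen 13, which lie 1.34-fold apart. The groups overlapped, since sound trauma specimen 10 lay above MSC treated specimens 18 and 20. Group means were 3344 ± 464 (SD, n = 3) after sound trauma and 3710.3 ± 292 (SD, n = 3) with MSCs. The authors' mean FPKM was 63.8 and 74.2 respectively. The log2 fold change was 0.16 (SE 0.16), about as large as the spread within groups, whose pooled SD was 0.16 on the log2 scale. Of all tested genes, 21.6% had a smaller spread than C3. The log2 fold change became 0.07 without specimen 8 and 0.26 without specimen 10. Without specimens 6 and 8 together, the difference changed direction to -0.056 (SE 0.16).

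C1rl (MGP_C57BL6NJ_G0031691) had scaled counts of 40.6, 60.2 and 62.5 after sound trauma against 82.1, 54.1 and 85.4 with MSCs. MSC treated specimens 13 and 20 lay above all sound trauma values, while MSC treated specimen 18 lay below sound trauma specimens 8 and 10. The counts rested on few reads, from 35 in specimen 6 (95% Poisson interval 24.4 to 48.7) to 88 in specimen 20 (70.6 to 108). Counting alone gives a coefficient of variation of 12.4% at this depth, against 22.2% observed within the sound trauma and 23.3% within the MSC treated group. Group means were 54.4 ± 12.1 (SD, n = 3) and 73.9 ± 17.2 (SD, n = 3), with an authors' mean FPKM of 1.80 and 2.53. The log2 fold change was 0.43 (SE 0.29), beside a pooled SD of 0.35. It was 0.24 without specimen 6, 0.15 without specimens 6 and 13, 0.21 without specimens 6 and 8, and 0.64 without specimen 18. In the GENCODE annotation of GRCm38 the antisense gene Gm44096 overlaps C1rl on the opposite strand. The handling of strand is not given in the sources used here, so reads of the pair could not be told apart if strand was ignored. Its nearest coding neighbour on the same strand is C1ra, which encodes the C1r protease itself.

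Cfd (MGP_C57BL6NJ_G0017861) had scaled counts of 2911, 679.8 and 144 after sound trauma against 1685, 136 and 194 with MSCs. Each group held at least 1 library with a high and 1 with a low value, and MSC treated specimen 13 lay above sound trauma specimens 8 and 10. The highest and lowest libraries were 21.4-fold apart, with a 20.2-fold range among the sound trauma and a 12.4-fold range among the MSC treated libraries. Counting error was small beside this, since even the lowest library had 133 reads (95% Poisson interval 111 to 158). Medians were 679.8 and 194, and the means were 1245 ± 1468 (SD, n = 3) and 672 ± 878 (SD, n = 3). The log2 fold change of -0.89 (SE 1.33) was smaller than the pooled SD of 2.07. Of all tested genes, 99.2% had a smaller spread within groups than Cfd. The difference turned to 0.18 without specimen 6, was -0.20 without specimen 18 and -0.46 without specimen 20, and was -1.98 without specimen 10 and -2.01 without specimen 13.

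Of the 3 genes, 0 had groups that did not overlap, where 7.16% of all tested genes did, 2.92% lower and 4.25% higher with MSCs. C3 and C1rl had a positive and Cfd a negative log2 fold change, the directions of the lists they were chosen from, and nothing is read from that split.

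**Figure D1:**
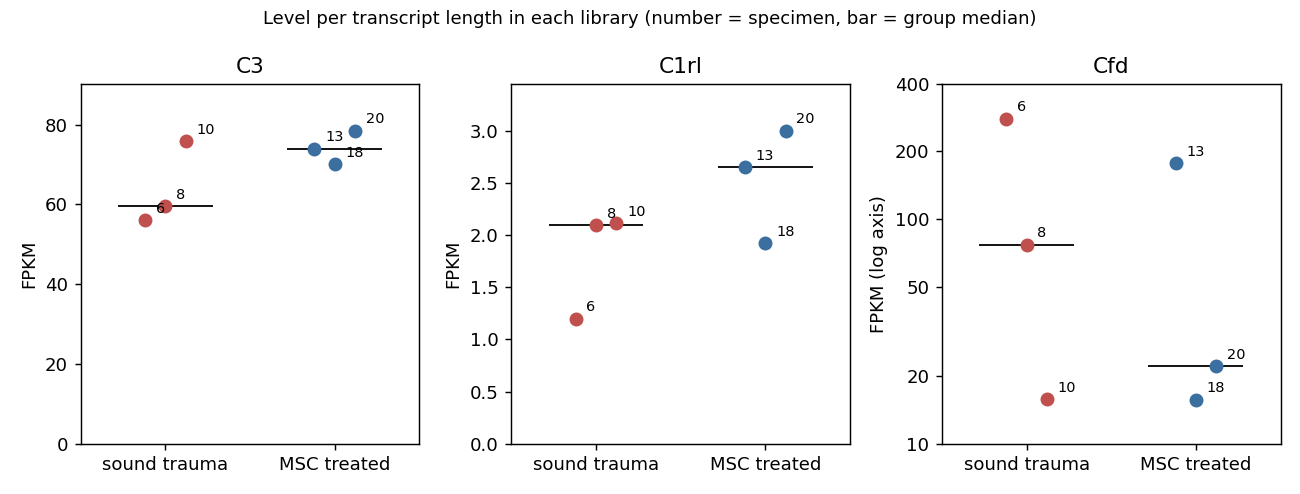
FPKM of C3, C1rl and Cfd (panels, with a log axis for Cfd) in the 3 sound trauma and 3 MSC treated libraries, with each point a library numbered by specimen and each bar the group median. The groups overlap in every panel, and Cfd spans from 15.7 FPKM in specimen 18 to 279.7 FPKM in specimen 6.

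Per transcript length the order of C3 and Cfd differed between libraries. Cfd stood at 279.7, 76.9 and 15.8 FPKM after sound trauma against 177, 15.7 and 22.2 FPKM with MSCs. C3 stood between 56.1 FPKM in specimen 6 and 78.5 FPKM in specimen 20, so its level was far steadier. FPKM is scaled to the library total and the scaled counts are not, so the library with the lowest C3 was specimen 6 by FPKM and specimen 8 by scaled count. Cfd was 4.99-fold, 1.29-fold and 2.39-fold above C3 in specimens 6, 8 and 13. In specimens 10, 18 and 20 the order was turned, with C3 4.80-fold, 4.46-fold and 3.54-fold above Cfd. C1rl, at 1.20, 2.10 and 2.12 FPKM after sound trauma and 1.93 to 3.002 FPKM with MSCs, was the lowest of the 3 genes in each of the 6 libraries, and C3 exceeded it 26.1-fold in specimen 20 to 46.7-fold in specimen 6. Cfd and C3 thus changed places within both groups.

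Of the 5 named genes with profiles closest to that of Cfd, 2 were fat-cell genes, and the 11 fat-cell genes measured by name ranged widely in their likeness to it. Of 20 adipocyte markers listed, 11 had a symbol and passed the filter, and none of these was at 0 reads in any library. Other defining fat-cell genes such as Adipoq, Lep, Fabp4 and Pparg were not analysed here by name. Among all 3527 other named genes tested, the lipid droplet coat gene Plin1 and the lipid droplet fusion gene Cidec had the profiles most like that of Cfd over the 6 libraries, with Pearson correlations of 0.985 and 0.979 on log2(scaled count + 1). The next were the elongation factor gene Eef1a2 (0.977), the ATP synthase subunit gene Atp5h (0.975) and the mitochondrial membrane gene Mtch2 (0.974). These correlations describe 6 libraries that also differ together in muscle and brain genes, and 3.49% of the named genes tested had a correlation above 0.9 with Cfd.

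Plin1 had scaled counts of 549, 189 and 21.4 after sound trauma against 299, 23.5 and 49.5 with MSCs. Like Cfd, it was high in specimens 6, 13 and 8 and low in specimens 10, 18 and 20. The ratio of Cfd to Plin1 in scaled counts, which is not corrected for transcript length and is read only across libraries, was 5.30, 3.59 and 6.71 after sound trauma against 5.63, 5.78 and 3.92 with MSCs. This ratio, chosen after the values were seen, spanned 1.87-fold where Cfd alone spanned 21.4-fold and Plin1 alone 25.6-fold. Plin1 is the named gene with the highest correlation to Cfd, so a narrow ratio follows from that choice and nothing is read from it. For Cidec, at 689.6, 206 and 43.8 after sound trauma against 356, 51.1 and 34.0 with MSCs, the ratio of Cfd spanned 2.15-fold. Ratios of Cfd to other fat-cell genes were wider, at 5.63-fold for Plin4, 6.76-fold for Lpl, 8.61-fold for Lipe, which itself spanned 2.62-fold, and 23.9-fold for Car3. The log2 ratio of MSC treated minus sound trauma animals differed by 0.0002 for Plin1 (pooled SD 0.39), 0.22 for Cidec (0.43), -0.48 for Plin4 (1.10), -0.62 for Lipe (1.49), -0.74 for Car3 (2.19) and -0.76 for Lpl (1.22).

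The other adipocyte markers followed Cfd to different degrees. Lipe, the hormone-sensitive lipase, Dgat2, which makes triglyceride, and Plin5 had correlations of 0.966, 0.952 and 0.941 with Cfd. The lipogenic gene Thrsp, the gluconeogenic and glyceroneogenic enzyme gene Pck1, Plin4 and the lipoprotein lipase gene Lpl had 0.911, 0.879, 0.873 and 0.826. Agt (angiotensinogen) and Car3 (carbonic anhydrase III, abundant in fat and slow muscle) had 0.37 and 0.13. Car3 was near its highest level in specimen 10, where Cfd was near its lowest, Agt was highest in specimen 8, and Lpl was lowest in specimen 8. The 11 genes all had a negative log2 fold change, with a median of -0.80 beside 0.001 over all tested genes, and 0 of 11 had groups that did not overlap, beside 2.92% of all tested genes in this direction. All 11 were selected by the study as down-regulated on these animals, so that their shared direction is not independent of that of Cfd. The median became 0.12 without specimen 6.

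Skeletal muscle genes and the brain gene Camk2a shared the profile of Cfd in part, and the other brain genes little. Correlations of the 13 muscle genes with Cfd ran from 0.34 for Myh2 to 0.75 for Myh4. Camk2a had 0.905, above the fat-cell genes Pck1, Plin4 and Lpl. The other brain genes had correlations from -0.03 for Gfap to 0.34 for Cbln1. The 13 muscle genes were all highest in specimen 6, where 21.1% of all tested genes were highest, and their sum was 998104, 40916 and 237272 after sound trauma against 566994, 89578 and 100239 with MSCs. Specimens 6 and 13 led in both Cfd and muscle genes. Specimen 8 had the lowest muscle sum and the third highest Cfd level, and specimen 10 had the third highest muscle sum and the second lowest Cfd level. Of the 12 brain genes 10 were highest in specimen 8, beside 28.2% of all tested genes, and their sum there was 41166, against 17664 in specimen 6, 8311 in specimen 10 and 8040.2 to 14012 with MSCs. All of these muscle and brain genes are in the authors' down-regulated list, which favours a maximum in a sound trauma library, so nothing is read from how many were highest there. The part of these tissues in the Cfd level was not tested. Without specimens 6 and 13, the pair with the highest muscle sums, the log2 fold change of Cfd was -0.94 (SE 0.82), and without specimens 6 and 8 it was 1.30 (SE 1.44).

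**Figure D2:**
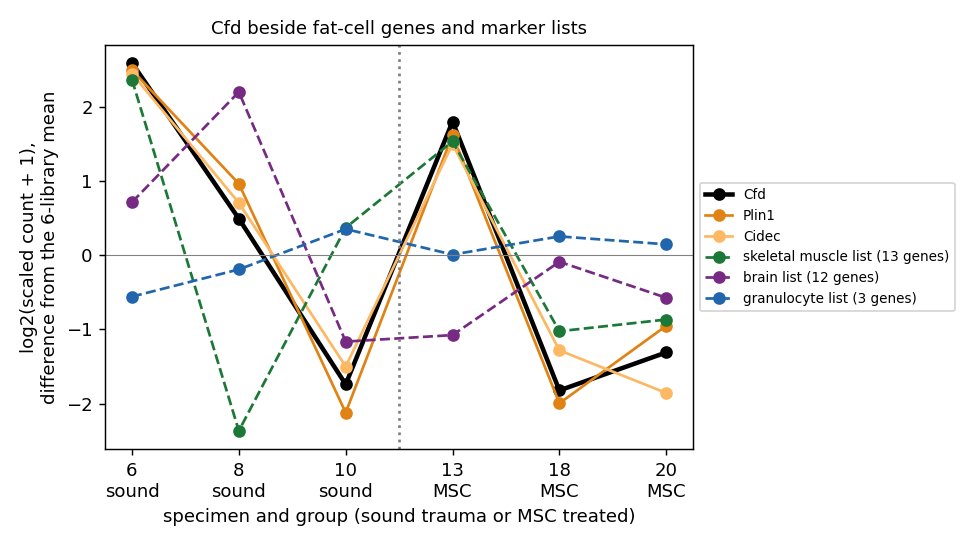
Difference of log2(scaled count + 1) from the 6-library mean (vertical axis) in each specimen (horizontal axis) for Cfd, Plin1 and Cidec and for the mean of the skeletal muscle, brain and granulocyte lists, where lines join the values of 1 gene or list and specimens have no order. Cfd, Plin1 and Cidec run together, while the muscle list is lowest and the brain list highest in specimen 8.

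In GRCm38 the nearest coding genes before Cfd, on the same strand, are the neutrophil protease genes Prtn3 and Elane. Elane had scaled counts of 1785, 2083 and 3102 after sound trauma against 2475, 3058 and 2587 with MSCs, lowest in specimen 6 where Cfd was highest. Prtn3, at 1006, 1433 and 1949 after sound trauma against 1593, 1791 and 1846 with MSCs, was also lowest in specimen 6. Correlations with Cfd were -0.85 for Elane and -0.86 for Prtn3 over the 6 libraries. Both genes were selected as up-regulated and Cfd as down-regulated on these animals, which favours opposite profiles, so nothing is read from them.

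The 5 named genes most like C3 over the 6 libraries were Plxnd1, Col5a1, Lamb1, Plscr3 and Bst2. Plxnd1, a semaphorin receptor of vessels, had a Pearson correlation of 0.987 with C3 on log2(scaled count + 1), the fibrillar collagen gene Col5a1 0.986, the laminin gene Lamb1 0.981, the phospholipid scramblase gene Plscr3 0.980 and the interferon-induced tetherin gene Bst2 0.974. Bst2 had scaled counts of 275, 226 and 448 after sound trauma against 449.9, 353 and 399.9 with MSCs. Its libraries stood in the same order as for C3, over a wider range of 1.99-fold. Of the 3527 named genes, 54 (1.53%) had a correlation above 0.9 with C3 and 509 (14.4%) one below -0.9. Named genes come from the authors' lists, which hold more down-regulated than up-regulated genes, and C3 is in the latter, so these counts are not compared. Correlations of the 12 brain genes with C3 ran from -0.35 for Camk2a to -0.98 for the cerebellar gene Cbln1. Cbln1 had scaled counts of 575, 3761 and 55.4 after sound trauma against 43.6, 160.3 and 56.3 with MSCs. These genes were selected as down-regulated and C3 as up-regulated on these animals, which favours negative correlations, so nothing is read from them. By scaled count, though not by FPKM, C3 was lowest in specimen 8, where most brain genes were highest. The part of tissue makeup in its level was not tested.

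Known inducers of C3 are the cytokines Il1b and Tnf and the receptors and factors that carry acute-phase signals. Of 30 genes listed for this group, 8 had a symbol and passed the filter (Il1b, Tnf, Osm, Tlr4, Il6st, Il17ra, Tnfrsf1b and Stat3). All 8 are in the authors' up-regulated list, with log2 fold changes from 0.11 for Stat3 to 0.96 for Tnf and a median of 0.37, beside 0.001 over all tested genes. Tnf had scaled counts of 15.1, 6.69 and 17.0 after sound trauma against 27.0, 20.4 and 26.2 with MSCs. Its MSC treated values all lay above its sound trauma values, as they did for Osm (24.3 to 41.99 after sound trauma and 42.7 to 67.5 with MSCs) and Stat3, so that 3 of these 8 genes had groups that did not overlap in this direction, beside 4.25% of all tested genes. Since the study chose these genes for that direction, nothing is read from the count. Tnf and Osm also rested on few reads, with 1 read worth between 0.893 and 1.16 scaled counts. The nearest values of the groups lay close together, at 17.0 and 20.4 for Tnf and 41.99 and 42.7 for Osm. By RT-PCR on other animals, the paper found Tnf not significantly different between sound trauma alone and sound trauma with MSCs. Like C3 by scaled count, 6 of the 8 genes were highest in MSC treated specimen 13, as were 10.6% of all tested genes, and nothing is read from this count either, since selection as up-regulated favours a maximum in an MSC treated library. C3 itself did not separate the groups, and its correlations with the 8 genes ran from -0.23 for Il1b to 0.91 for the receptor gene Tnfrsf1b.

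The closest profiles to that of C1rl were those of Ms4a4c, of a family of leukocyte membrane proteins, at a Pearson correlation of 0.994, the transporter-like gene Mfsd14b at 0.990, the leukocyte metalloproteinase gene Mmp25 at 0.973, Gm14198 at 0.971 and the immunoglobulin heavy chain segment Ighv8-12 at 0.969. Ms4a4c had scaled counts of 29.0, 45.9 and 49.1 after sound trauma against 68.6, 41.9 and 65.0 with MSCs. As for C1rl, specimen 6 was lowest and specimens 13 and 20 were highest. Ighv8-12 ranged from 6 reads in specimen 6 to 113 in specimen 20, a 15.8-fold range in scaled counts, where C1rl ranged 2.11-fold. Of the named genes tested, 25 (0.709%) had a correlation above 0.9 with C1rl. The Poisson intervals of C1rl reads in several libraries overlap, so the order of its values is not fixed at this depth.

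Macrophage and granulocyte genes were read in all libraries at levels that ran partly alongside C3 and C1rl. Of 19 macrophage markers, 7 had a symbol and passed the filter, and their sum was 3046, 3554 and 5859.9 after sound trauma against 5149.9, 5253 and 5629 with MSCs. Specimens 6 and 8 were lowest, as for C3, and specimen 10 was highest. Correlations of the 7 genes with C3 ran from 0.64 for Fcgr1 to 0.88 for Adgre1, and with C1rl from 0.48 for Ms4a7 to 0.77 for Adgre1. The 7 inner ear markers had correlations with C3 from 0.41 for Lhfpl5 to 0.91 for Pou4f3. The macrophage and inner ear markers are all in the up-regulated list, as are C3 and C1rl. This favours positive correlations, so nothing is read from them. In each of these lists 0 of 7 genes had groups that did not overlap, beside 4.25% of all tested genes in this direction. Of 12 granulocyte and marrow markers 3 had a symbol and passed the filter (Mpo, Elane and Prtn3), with sums between 9035 and 17382 in sound trauma and between 13311 and 15923 in MSC treated libraries. The part of these cells in the levels of C3 and C1rl was not tested. The median log2 fold changes of the macrophage, granulocyte and inner ear lists were 0.53, 0.25 and 0.53 with all libraries, and changed direction to -0.086, -0.20 and -0.26 without specimens 6 and 8.

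**Figure D3:**
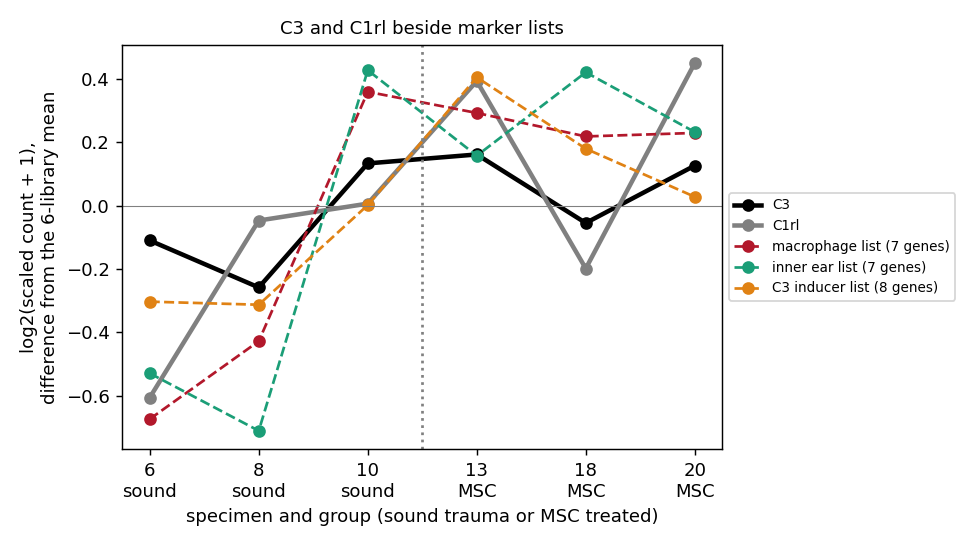
Difference of log2(scaled count + 1) from the 6-library mean (vertical axis) in each specimen (horizontal axis) for C3 and C1rl and for the mean of the macrophage, inner ear and C3 inducer lists, where lines join the values of 1 gene or list and specimens have no order. C3 and the 3 lists are below their means in specimens 6 and 8, and C1rl is lowest in specimen 6.

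The rest of the cascade was only partly open to view by name. Of 61 complement genes in 5 lists (first steps, C3 and the alternative pathway, terminal components, regulators and receptors), 5 had a symbol, and besides the 3 genes these were the regulators Thbd and Csmd3. Thbd, or thrombomodulin, an endothelial brake on clotting and complement, had scaled counts of 692, 537 and 592 after sound trauma against 876, 699.6 and 703 with MSCs. Its MSC treated values all lay above its sound trauma values, as in 4.25% of all tested genes, and its log2 fold change was 0.32 (SE 0.15). Thbd has a symbol here through the authors' up-regulated list, so this direction was selected on these animals and nothing is read from it. Csmd3, a large neuronal CUB and sushi domain protein, did not pass the filter on low counts. The terminal components and the receptors for complement fragments were not analysed here by name, so levels of the genes that act just before and after C3, C1rl and Cfd are not given.

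**Figure D4:**
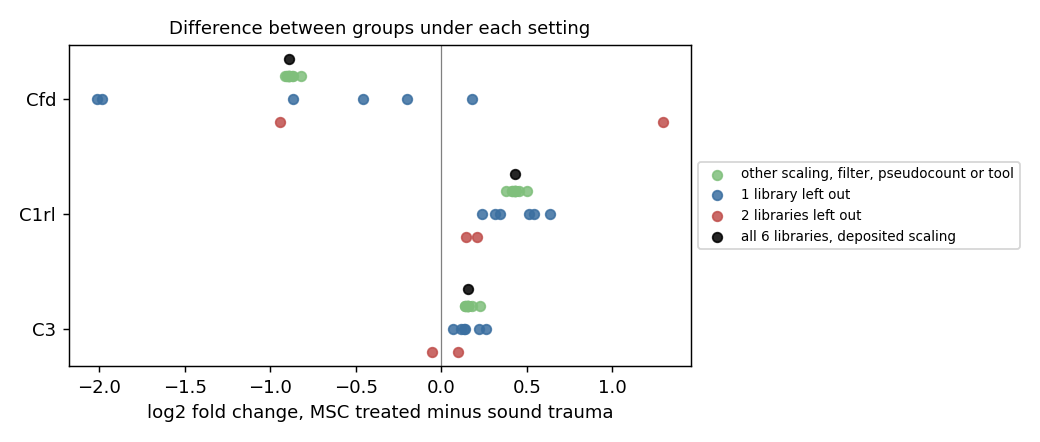
Log2 fold change of MSC treated over sound trauma animals (horizontal axis) for C3, C1rl and Cfd (vertical axis) with all 6 libraries, under other scalings, filters, pseudocounts and tools, and with 1 or 2 libraries left out. Other settings kept each value near its own, from -0.92 to -0.82 for Cfd, while leaving out libraries moved Cfd from -2.01 to 1.30.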

How the data were processed

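Per the study's methods, libraries were made with the NuGen Universal Plus Assay, sequenced on a NovaSeq, and trimmed and aligned by the authors with 1 software package to the Ensembl C57BL/6NJ genome. The authors compared groups with NOISeq, not used here. The counting tool, strand handling and any filter on low counts are not given in the sources used here. The authors deposited a signal for 41096 genes, in which each library's counts carry 1 common factor. Every value (100%, tolerance 1e-06 of the value) was a whole multiple of 1 step, and reads were recovered from these steps. The authors also deposited lists of genes that fell (2741) or rose (1137) in their own comparison, with group means of FPKM, used here for levels per length, and their own FDR and fold changes, which were not used. For changed genes the paper states an FDR limit and a minimum fold change. The authors' mean FPKM of C3, C1rl and Cfd differ between the groups by less than that minimum. Symbols come from the deposited lists alone (3716 genes).

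The design assumed scaled counts, and limma-trend on log2(scaled count + 1) was fitted to the 15970 genes kept by edgeR's filterByExpr, with Benjamini-Hochberg adjustment. On recovered reads, DESeq2, limma-voom and the edgeR quasi-likelihood test were alternatives. Labels call the libraries separate specimens, and p-values measure the spread between these. Genes and lists were chosen with earlier results of these data known. Named genes are C3, C1rl and Cfd, the genes of 12 lists with a symbol, and the 5 named genes with the highest correlation to each of the 3. Intervals are exact 95% Poisson intervals and cover counting error only. The fits were also run on simulated counts with known changes. Software: DESeq2 1.42.0, edgeR 4.0.16 and limma 3.58.1 in R 4.3.3; scipy 1.17.1, matplotlib 3.10.9 and pandas 2.3.3 in Python 3.11.15.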

Additional observations from a re-analysis of the deposited data

How the results depend on the processing

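Over the 10 other scalings, filters, pseudocounts and tools, the log2 fold change was between 0.14 and 0.23 for C3, 0.38 and 0.50 for C1rl and -0.92 and -0.82 for Cfd. No direction changed, and the number of genes past the adjusted p threshold was 0 in each. Leaving out 1 library at a time gave 0.07 to 0.26 for C3, 0.24 to 0.64 for C1rl and -2.01 to 0.18 for Cfd, and 0 to 1 genes past the threshold (1 without specimen 10). In the same fits the median of the gene lists ran from 0.27 to 0.48 for C3 inducers, -1.34 to 0.12 for adipocyte, 0.24 to 0.82 for macrophage, 0.06 to 0.52 for granulocyte, -1.46 to 0.89 for skeletal muscle, -1.88 to -0.33 for brain and 0.33 to 0.91 for inner ear genes. Leaving out 2 libraries was chosen after seeing the data. Without specimens 6 and 8, the value was -0.056 for C3 and 1.30 for Cfd, and the list medians were 0.094 for C3 inducers, 0.35 for adipocyte, -0.086 for macrophage, -0.20 for granulocyte, 0.31 for brain and -0.26 for inner ear genes. Without specimens 6 and 13, the medians were 0.15 for C3 inducers and 0.14 for skeletal muscle genes. With 1 sound trauma library left, its spread is assumed to be that of the MSC treated group. The cause of these changes was not tested. No paired analysis was possible because the groups share no specimen number. C1rl rested on 35 to 88 reads per library, with a counting error of 12.4% beside a spread of 22.2% and 23.3% within the groups.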
